A study of Mus musculus with 6 samples.

Results

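The 6 genes described here, Nr3c1, Fkbp5, Tsc22d3, Ddit4, Sgk1 and Tsc22d4, were taken by symbol from the 27998 genes counted in every library. Nr3c1 encodes the glucocorticoid receptor, Fkbp5, Tsc22d3, Ddit4 and Sgk1 are genes that glucocorticoids induce in many cell types, and Tsc22d4 is a relative of Tsc22d3 in the TSC22 family. The cells were invariant natural killer T (iNKT) cells, T cells whose semi-invariant receptor recognises lipids presented by CD1d, from liver, spleen and lymph nodes of wild-type C57BL/6 mice aged 5 weeks. Magnetic beads first removed cells stained for CD8 or B220, and TCR-beta+ CD1d tetramer+ cells were then sorted and sequenced by 10x Genomics 3' chemistry. Each organ gave 2 libraries. The methods call them biological repeats without saying how many animals each came from, and p-values measure the spread between these libraries. The labels name no treatment.

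Glucocorticoids enter the cell and bind a receptor that heat shock proteins and immunophilins hold ready in the cytoplasm. The bound receptor moves to the nucleus, where it binds response elements and raises or lowers transcription. In lymphocytes its targets include Tsc22d3, which encodes the leucine zipper protein GILZ, and Fkbp5, whose product FKBP51 lowers the hormone affinity of the receptor.

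Of 16587 barcodes, 16532 cells were kept. Median depth was 3592 and 2880 unique molecular identifiers (UMIs, each standing for 1 captured transcript) per cell in liver, against 1724 and 1554 for spleen and 1730.5 and 1470 for lymph node, and each pair of libraries shared 6 to 20 barcodes. Markers of the sorted T cells summed to 5292 to 6420 CPM (UMIs scaled to a common library total) over the 6 libraries. Both lymph node libraries held RNA of Y-linked genes and no Xist UMI, the other 4 held Xist and no Y-linked UMI, and this difference cannot be told apart from organ. The 10 genes of an immediate early and dissociation-linked list, such as Fos and Junb, summed to 5906 and 6305 CPM in lymph node libraries, against 806 and 822 in those of liver and 1296 and 1086 in those of spleen. Haemoglobin genes summed to 556 and 865 CPM in liver and were left out of the counts. An alternative setting below kept them together with the ribosomal protein genes, and their own part in the values was not tested.

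Promoters were searched for the letters of the receptor's response element. RefSeq gave 11 windows (GRCm38.p6, from 250 bases before to 50 bases after a transcript start) for 4 of the genes, of which 6 belonged to Sgk1, 3 to Tsc22d3, 1 to Ddit4 and 1 to Fkbp5. The palindromic element, AGAACA and TGTTCT with 3 bases of any kind between them, which reads alike on both strands, was in 1 of these 11 windows and in 0.00913% of all 32851 windows. Its hexamer, AGAACA or TGTTCT on either strand and also counted inside the palindrome, was in 4 of the 11 windows and in 19% of all windows. Of these 4 windows, 3 belonged to Sgk1 and 1 to Tsc22d3, and the windows of Ddit4 and Fkbp5 held none. Several windows can belong to 1 gene, so the counts of windows are not counts of genes. The window of Sgk1 with the palindrome (chr10:21993640-21993889, plus strand) and the window of Tsc22d3 with a hexamer (chrX:140600523-140600772, minus strand) are shown over the 250 bases before the start, because Sgk1 carries the full element and Tsc22d3 had the largest organ differences, with hexamers in capitals.
Sgk1: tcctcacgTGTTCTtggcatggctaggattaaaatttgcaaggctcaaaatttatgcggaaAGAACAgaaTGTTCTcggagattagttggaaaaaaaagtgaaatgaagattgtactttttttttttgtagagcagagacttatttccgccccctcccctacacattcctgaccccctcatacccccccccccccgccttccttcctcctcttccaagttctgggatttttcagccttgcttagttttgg
Tsc22d3: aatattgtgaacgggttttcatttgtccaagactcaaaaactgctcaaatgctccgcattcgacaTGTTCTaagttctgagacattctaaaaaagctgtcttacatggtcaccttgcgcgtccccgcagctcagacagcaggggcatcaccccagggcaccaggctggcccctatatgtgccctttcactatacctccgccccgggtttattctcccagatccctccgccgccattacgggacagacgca
In Sgk1 the palindrome begins 189 bases before the start, and a further hexamer begins 242 bases before it. In Tsc22d3 the hexamer begins 185 bases before the start. These are matches of letters, and binding was not measured.

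Nr3c1 (ENSMUSG00000024431; GRCm38, chromosome 18, 39410545 to 39519421, minus strand), the receptor gene, was highest in liver and lowest in lymph node. It reached 139.8 and 131.9 CPM in the liver libraries, 110.1 and 117.8 CPM in spleen and 84.7 and 97.1 CPM in lymph node. The libraries of the 3 organs did not overlap. UMIs summed per library were compared by edgeR's quasi-likelihood test with Benjamini-Hochberg adjustment over 10174 genes, and a gene was called at an adjusted p below 0.05. Nr3c1 was higher in liver than in lymph node, with a log2 difference of 0.53 (SE 0.121, adjusted p = 0.000754, edgeR), or 1.44-fold, and was called under all 15 alternative settings (adjusted p up to 0.0346). In such sums fewer cells of a type and less RNA per cell cannot be told apart. Spleen exceeded lymph node by 0.35 (SE 0.125, adjusted p = 0.0474, edgeR), called under 4 of 15 alternatives. Among the losses were DESeq2 (0.153), libraries thinned to the smallest total (0.0557), no filter on low counts (0.0562) and ribosomal protein and haemoglobin genes kept (0.0572). It was also lost without spleen replicate 1 (adjusted p = 0.0578), spleen replicate 2 (0.265), lymph node replicate 1 (0.329) or lymph node replicate 2 (0.0891), all by edgeR. With a library left out, its organ had 1 library, which was assumed to vary like those of the other organs. The liver to spleen difference was 0.18 (SE 0.118, adjusted p = 0.279, edgeR).

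Fkbp5 (ENSMUSG00000024222; GRCm38, chromosome 17, 28399094 to 28517527, minus strand) was highest in lymph node and lowest in spleen. It reached 27.5 and 25.1 CPM in the liver libraries, 14.1 and 20.2 CPM in spleen and 31.4 and 36.5 CPM in lymph node, from 194 and 152, 54 and 72, and 116 and 132 UMIs. The organs did not overlap, and both spleen libraries lay below all others. Between spleen and lymph node the log2 difference was -0.97 (SE 0.202, adjusted p = 0.000565, edgeR), 1.96-fold lower in spleen, and it was called under all 15 alternatives (adjusted p up to 0.0355). Liver exceeded spleen by 0.55 (SE 0.197, adjusted p = 0.0389, edgeR), called under 10 of 15 alternatives. It was lost with DESeq2 (0.183), with libraries thinned to the smallest total (0.0633), and without liver replicate 1 (adjusted p = 0.16), liver replicate 2 (0.0644) or spleen replicate 1 (0.409, at a log2 difference of 0.29), by edgeR. The liver to lymph node difference was -0.42 (SE 0.179, adjusted p = 0.0614, edgeR), short of the threshold. It passed under 5 of 15 alternatives, among them without spleen replicate 1 (adjusted p = 0.0465) or spleen replicate 2 (0.047), without the 2% of cells with the most UMIs (0.0261) and without cells with Cd8b1 RNA and B-cell-like and myeloid-like cells (0.0475), by edgeR.

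Tsc22d3 (ENSMUSG00000031431; GRCm38, chromosome X, 140539528 to 140600659, minus strand) had the largest organ difference among the 6 genes. It reached 87.6 and 66.0 CPM in the liver libraries, 26.0 and 26.0 CPM in spleen and 95.7 and 194.1 CPM in lymph node. The spleen libraries, with 100 and 93 UMIs, were alike and lay below all others, while the lymph node libraries were far apart (145 ± 69.6 CPM, SD, n = 2). Between spleen and lymph node the log2 difference was -2.45 (SE 0.466, adjusted p = 0.0452, edgeR), 5.47-fold lower in spleen. The call was lost with the replicate number as a block (-2.42, adjusted p = 0.117, edgeR). It was also lost without liver replicate 1, liver replicate 2, spleen replicate 1 or spleen replicate 2. The difference lay between -2.87 and -1.87 whichever library was left out. Liver exceeded spleen by 1.48 (SE 0.469, adjusted p = 0.11, edgeR), without overlap but short of the threshold, which it passed without lymph node replicate 1 (7.41e-08) or lymph node replicate 2 (1.44e-07), with DESeq2 (0.0101) or with no filter on low counts (0.0323). The liver to lymph node difference was -0.97 (SE 0.395, adjusted p = 0.152, edgeR), not called. It was -1.38 without lymph node replicate 1 (adjusted p = 5.74e-08, edgeR) and -0.38 without lymph node replicate 2 (0.114), 2 values that carry no spread between lymph node libraries, since each rests on 1 of them.

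The share of cells with a UMI was also taken after every cell was thinned to 1000 UMIs, with 0 to 488 shallower cells per library left out. For Tsc22d3 it was 1.70% and 2.25% in spleen, against 5.11% and 4.59% for liver and 7.0% and 13.3% for lymph node. Unthinned, it was 3.48% and 3.28%, 18.2% and 12.1%, and 11.4% and 18.6% in that order. Spleen was lowest on both scales, while liver stood below lymph node only after thinning. Thinned shares for Nr3c1 were 8.85% and 8.73% for liver, 8.05% and 8.57% for spleen and 6.74% and 6.99% for lymph node, in the same order as its CPM. Genes of other cell types gave differing gauges of free RNA or foreign cells, unthinned. The haemoglobin gene Hbb-bs had a UMI in 7.50% and 3.46% of liver cells and in at most 0.0377% of cells of the other libraries, the myeloid gene Lyz2 in 2.28% of cells of lymph node replicate 2 and 0.0753% to 0.758% in the others, the B cell gene Cd79a in 0% to 0.419% and the hepatocyte gene Alb in 0% to 0.0714%. Their part in the members' shares was not tested.

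Ddit4 (ENSMUSG00000020108; GRCm38, chromosome 10, 59949669 to 59951834, minus strand) encodes REDD1, an inhibitor of mTORC1 that is also induced by stress. It reached 103.0 and 75.5 CPM in the liver libraries, 132.5 and 92.4 CPM in spleen and 89.3 and 156.8 CPM in lymph node. The organs overlapped with one another. No comparison was called, with log2 differences of -0.41 (SE 0.36, adjusted p = 0.488) for liver over spleen, -0.51 (SE 0.359, 0.344) for liver over lymph node, and -0.11 (SE 0.365, 0.892) for spleen over lymph node, by edgeR. Without lymph node replicate 1, the lower of the pair, the liver to lymph node difference was -0.86, and without lymph node replicate 2 it was -0.06. Its size thus turned on which single lymph node library was kept. The spleen to lymph node difference was -0.45 and 0.34 in the same order, so its sign turned. It was -0.36 without spleen replicate 1 and 0.11 without spleen replicate 2. The liver to spleen difference ran from -0.62 to -0.15 with 1 library left out.

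Sgk1 (ENSMUSG00000019970; GRCm38, chromosome 10, 21882184 to 21999903, plus strand) encodes a kinase that acts downstream of PI3K and regulates ion transport. It was sparse, with 180 and 164, 72 and 55, and 106 and 89 UMIs for the pairs of liver, spleen and lymph node libraries. Its level was 25.5 and 27.0 CPM in the liver libraries, 18.7 and 15.4 CPM in spleen and 28.7 and 24.6 CPM in lymph node. Spleen lay below both other organs, and these overlapped. Liver exceeded spleen by 0.54 (SE 0.193, adjusted p = 0.0362, edgeR), a call lost with DESeq2 (0.178), with thinned libraries (0.0599), and without liver replicate 1 (0.0733), liver replicate 2 (0.128) or spleen replicate 2 (0.235). Between spleen and lymph node the difference was -0.62 (SE 0.203, adjusted p = 0.0294, edgeR), lost with DESeq2 (0.147) and without spleen replicate 2 (0.191), lymph node replicate 1 (0.235) or lymph node replicate 2 (0.0536). The liver to lymph node difference was -0.08 (SE 0.181, adjusted p = 0.764, edgeR).

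Tsc22d4 (ENSMUSG00000029723; GRCm38, chromosome 5, 137745730 to 137768450, plus strand) was higher in liver than in lymph node, the same order as Nr3c1. It reached 328.2 and 291.6 CPM in the liver libraries, 259.3 and 285.2 CPM in spleen and 233.1 and 245.3 CPM in lymph node. Lymph node lay below the other 2 organs, and liver lay above spleen. The liver to lymph node difference was 0.32 (SE 0.114, adjusted p = 0.0275, edgeR), or 1.25-fold, and the call was lost with DESeq2 (0.0635), with thinned libraries (0.0528), and without liver replicate 1 (0.14), lymph node replicate 1 (0.155) or lymph node replicate 2 (0.0966). The liver to spleen difference was 0.11 (SE 0.114, adjusted p = 0.513, edgeR), and that between spleen and lymph node was 0.21 (SE 0.116, adjusted p = 0.235, edgeR).

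**Figure D1:**
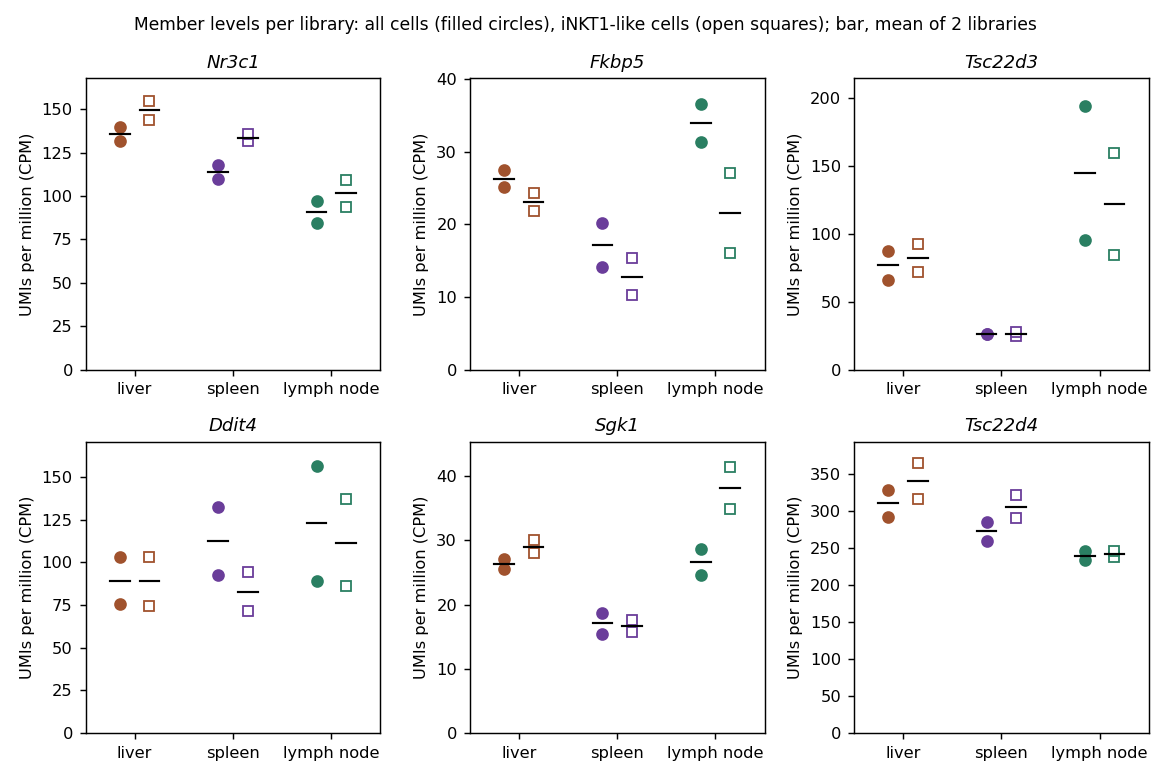
CPM of each gene by organ, with a point for each library, for all cells (filled circles) and iNKT1-like cells (open squares), and a bar at the mean of 2 libraries. The spleen libraries are lowest for Tsc22d3, Fkbp5 and Sgk1, and the lymph node libraries are lowest for Nr3c1 and Tsc22d4.

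All 6 genes passed the filter on low counts. In all cells 2 of them were called between liver and spleen, where 25.8% of all genes tested were called, 2 between liver and lymph node, against 37.6%, and 4 between spleen and lymph node, against 18.3%. The 3 comparisons share libraries and are not independent. Since the shares of classes differ between organs, the test was repeated within 1 class of cells. Clusters were made without the 6 genes after each gene was centred within its organ. Clusters 0, 1 and 2 were called iNKT1-like, from 8 markers such as Tbx21, Il2rb and Klrb1c that stood higher in them than in iNKT17-like cells, although none of these markers was among the 10 leading genes of clusters 0 and 1. Against all other cells the markers of cluster 1 were lower (median log2 -0.43), and 0 of 8 were 2-fold higher. Cluster 4 (median log2 over iNKT17-like cells 1.29, 8 of 8 markers 2-fold higher) and Ifit-like cells (1.52, 7 of 8) also met the measure against iNKT17-like cells and were kept out of the class, since other markers named or led them, and cluster 5 fell just short (0.98, 4 of 8). Cluster 4 held 9.5% and 10.6% of liver, 17.1% and 14% of spleen and 6.29% and 5.55% of lymph node cells, Ifit-like cells 5.14% and 7.44%, 4.84% and 6.74%, and 4.66% and 3.23%, and cluster 5 6.93% and 9.12%, 3.26% and 3.28%, and 12.6% and 10.1%. The class held 1207 to 2077 cells per library, mostly from cluster 0 in liver and spleen and mostly from cluster 2 in lymph node. At a clustering resolution of 0.3 the class of that name included a cluster of 4188 cells led by Ccr7 and Id3. In that cluster the markers were lower than in all other cells (median log2 -0.84), and 0 of 8 were 2-fold higher. In clusters made without centring on the organs, the class of that name held 39 and 124 liver cells, against 1781 and 1843 for spleen and 1406 and 1451 for lymph node, since most liver cells fell in a cluster led by Klra9 and Gzma, so its liver values are not those of the same class.

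In iNKT1-like cells Tsc22d3 was again lowest in spleen. It reached 92.8 and 72.3 CPM in the liver libraries, 25.0 and 27.4 CPM in spleen and 84.4 and 160.0 CPM in lymph node, with 58 and 59 UMIs in spleen. Both spleen libraries lay below all others, and liver overlapped with lymph node. Liver exceeded spleen by 1.59 (SE 0.255, adjusted p = 0.000538, edgeR), or 3.00-fold, called under 17 of 18 alternatives and not in clusters made without centring (1.08, adjusted p = 0.237). Between spleen and lymph node the difference was -2.24 (SE 0.267, adjusted p = 4.25e-05, edgeR), 4.72-fold lower in spleen and called under all 18. The highest adjusted p, 0.0184 by edgeR, came at a clustering resolution of 0.3, where the class included the cluster led by Ccr7. The liver to lymph node difference was -0.65 (SE 0.217, adjusted p = 0.0376, edgeR), called under 10 of 18 alternatives. It was lost with DESeq2 (adjusted p = 0.0533), and by edgeR at a clustering resolution of 0.3 (0.222) and in clusters made without centring (0.272). Further losses by edgeR were with mitochondrial ribosomal protein genes kept in the clustering (0.0618) and within cluster 0 alone (0.0848). The difference was -0.53 without liver replicate 2 and -0.11 without lymph node replicate 2, neither called. It turned within cluster 1 alone (0.32, adjusted p = 0.474, edgeR).

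Sgk1 was lowest in spleen in iNKT1-like cells too. It reached 28.0 and 30.0 CPM in the liver libraries, 17.6 and 15.8 CPM in spleen and 41.5 and 34.8 CPM in lymph node, from 131 and 107, 41 and 34, and 57 and 49 UMIs. The libraries of the 3 organs did not overlap, but the liver to lymph node difference, -0.49 (SE 0.208, adjusted p = 0.0708, edgeR), was not called. It passed under 2 of 18 alternatives, a clustering resolution of 1.0 (-0.56, adjusted p = 0.0389, edgeR) and cluster 1 left out (-0.65, 0.0202). The sign turned within cluster 0 alone (0.16, adjusted p = 0.89, edgeR) and within cluster 1 alone (0.42, 0.624). Liver exceeded spleen by 0.71 (SE 0.219, adjusted p = 0.0138, edgeR), called under 11 of 18 alternatives. The losses include those without liver replicate 2 (0.0654) or spleen replicate 2 (0.0978), with DESeq2 (0.123), and in clusters made without centring, where the difference was 0.04 (0.986). The spleen to lymph node difference was -1.20 (SE 0.243, adjusted p = 0.000238, edgeR), called with any library left out but not within cluster 0 alone (-0.51, 0.712) or cluster 1 alone (-0.69, 0.613).

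Fkbp5 in iNKT1-like cells reached 24.4 and 21.9 CPM in the liver libraries, 10.3 and 15.3 CPM in spleen and 16.0 and 27.0 CPM in lymph node, from 114 and 78, 24 and 33, and 22 and 38 UMIs. Spleen lay below both other organs, and the lymph node libraries spanned the liver values. Liver exceeded spleen by 0.78 (SE 0.256, adjusted p = 0.0205, edgeR), called under 11 of 18 alternatives. It was lost with DESeq2 (0.179), with mitochondrial ribosomal protein genes kept in the clustering (0.0935), in cluster 1 alone (0.343), in clusters made without centring, where the difference was larger (1.18, SE 0.56, 0.222), without liver replicate 1 (0.0998) or spleen replicate 1 (0.286) and with libraries thinned to the smallest total, where the difference was 0.27 (0.633). The spleen to lymph node difference, called in all cells, was -0.77 (SE 0.304, adjusted p = 0.0927, edgeR) here. It passed the threshold under 4 of 18 alternatives. These were without spleen replicate 2 (-1.10), without lymph node replicate 1 (-1.08), at a clustering resolution of 0.3 (adjusted p = 0.00561, edgeR) and without centring (0.000234). Under those clusterings the class was made up differently. Without spleen replicate 1 the difference was -0.47, and without lymph node replicate 2 it was -0.33.

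Nr3c1 in iNKT1-like cells reached 154.8 and 144.0 CPM in the liver libraries, 131.6 and 135.8 CPM in spleen and 93.9 and 109.5 CPM in lymph node. Liver exceeded lymph node by 0.47 (SE 0.137, adjusted p = 0.00758, edgeR), called under 13 of 18 alternatives. It was lost without lymph node replicate 1 (adjusted p = 0.132), with DESeq2 (0.0605), in clusters made without centring (0.29, 0.529), and within cluster 0 (0.166) or cluster 1 (0.124) alone. Tsc22d4 reached 364.1 and 316.1 CPM in the liver libraries, 289.5 and 320.8 CPM in spleen and 237.3 and 246.0 CPM in lymph node. Both genes were lowest in lymph node, as in all cells. For Tsc22d4 the liver to lymph node difference was 0.40 (SE 0.126, adjusted p = 0.0118, edgeR), lost in clusters made without centring (0.941) and without liver replicate 1 (0.0644), lymph node replicate 1 (0.0813) or lymph node replicate 2 (0.0619). Ddit4 reached 103.3 and 74.5 CPM in the liver libraries, 94.2 and 71.4 CPM in spleen and 85.9 and 137.2 CPM in lymph node, with overlap between organs, and was called in no comparison (adjusted p of 0.924, 0.101 and 0.161, edgeR), although the liver to lymph node difference passed the threshold under 8 of 18 alternatives, among them without liver replicate 1 (0.0122), spleen replicate 1 (0.0278) or spleen replicate 2 (0.0267). Which lymph node library was kept decided its size. It was -0.70 (0.00113) without lymph node replicate 1 and -0.03 (0.945) without lymph node replicate 2, and between spleen and lymph node it was -0.72 (0.00247) and -0.06 (0.932), each against 1 lymph node library. Without spleen replicate 1 the latter was -0.62 (0.0254) and without spleen replicate 2 -0.29 (0.426). Nr3c1 and Tsc22d4 between spleen and lymph node, at adjusted p of 0.0739 and 0.0953 with all libraries, passed under 5 and 4 of 18 alternatives, among them without liver replicate 1 (0.0491 and 0.0483, edgeR). Of the 6 genes, 3, 3 and 2 were called between liver and spleen, liver and lymph node, and spleen and lymph node, against 23.6%, 28.9% and 11.5% of 9309 genes. By direction these shares were 11.9% higher and 11.7% lower in liver than in spleen, 13.3% higher and 15.6% lower in liver than in lymph node, and 4.23% higher and 7.24% lower in spleen than in lymph node.

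**Figure D2:**
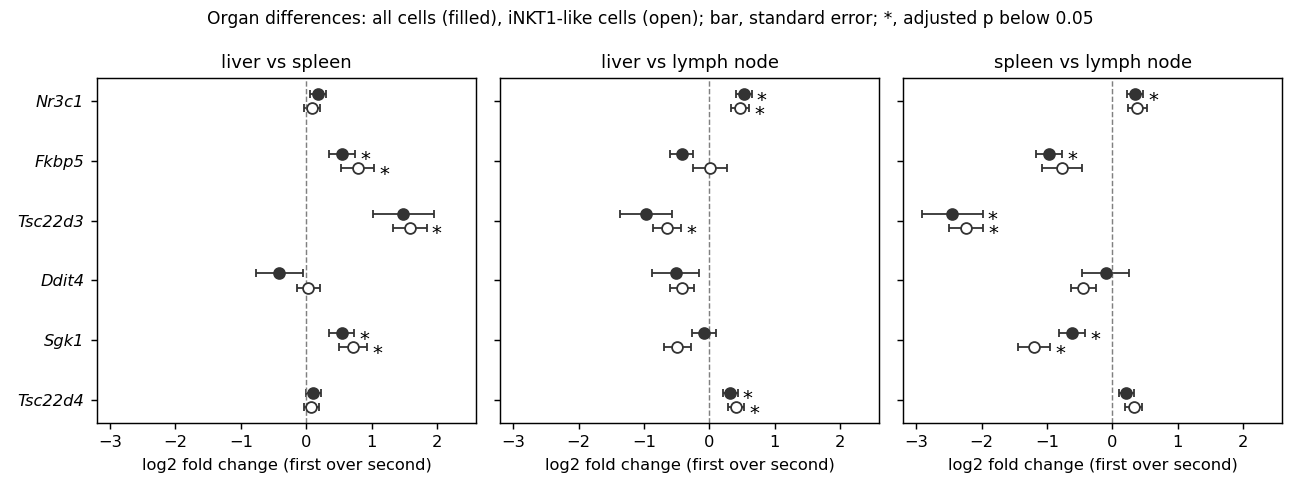
Log2 fold change of each gene, first organ over second, with its standard error, for all cells (filled) and iNKT1-like cells (open) in the 3 comparisons, with an asterisk at an adjusted p below 0.05. The differences of Tsc22d3 between spleen and lymph node, -2.45 and -2.24, are the largest.

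The genes also varied between classes of one library, which is a description, since the classes were made from the same cells. Tsc22d3 was lower than in iNKT1-like cells in all 6 libraries both in Cycling cells (Top2a, Birc5) and in the unnamed cluster 5 (led by Marcksl1, Cd200 and Irf8), with medians of 20.2 and 27.2 against 78.4 CPM, from 1 to 22 and 2 to 27 UMIs per library. It was higher in 5 of 6 libraries in iNKT17-like cells (Ccr6, Pxdc1) and in 5 of 6 in the unnamed cluster 4 (led by Klra9 and Gzma, with Ccr7 and Klf2). In iNKT17-like cells this rests on 9 and 4 UMIs in liver and 5 and 4 in spleen, against 167 and 325 in lymph node. In cluster 4 it rests on 16 to 98 UMIs per library.

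In the lymph node, iNKT17-like cells made up 28.7% and 30.7% of cells and had 145.9 and 270.3 CPM of Tsc22d3, and cluster 4 had 182.8 and 503.5 CPM. In spleen, iNKT17-like cells had 33.2 and 40.3 CPM from 5 and 4 UMIs, and cluster 4 had 38.0 and 26.5 CPM. Spleen was thus below lymph node in these classes too. A cluster with Cd8b1 RNA at a finer resolution, whose leading genes include Dapl1 and Igfbp4, held 84 and 77 lymph node cells, 3.18% and 2.7% of each library, and 10.2% and 10.3% of its Tsc22d3 UMIs. Myeloid markers (5 genes) summed to 119 CPM in lymph node replicate 2, the library with the most Tsc22d3, and to 2.8 to 23.9 CPM in the others. With that cluster, all other cells with Cd8b1 RNA, and B-cell-like and myeloid-like cells left out, the spleen to lymph node difference in all cells was -2.37 (adjusted p = 0.0433, edgeR).

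Nr3c1 was lower than in iNKT1-like cells in all 6 libraries in Cycling cells, cluster 4, cluster 5 and iNKT17-like cells, with medians of 65.2, 99.3, 93.4 and 90 against 134 CPM. Fkbp5 was higher in Cycling cells in 5 of 6 libraries (median 47.2 against 18.9 CPM, from 3 to 31 UMIs), opposite to the receptor gene. Ddit4 was higher in cluster 4 in all 6 (median 179 against 90.1 CPM). Sgk1 was lower in cluster 5 and in Ifit-like cells, which express interferon-induced genes, in all 6 (medians of 6.35 and 16.9 against 29 CPM), although these rest on 1 to 8 and 2 to 10 UMIs per library. Tsc22d4 was lower in Cycling cells in all 6 (median 177 against 303 CPM).

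**Figure D3:**
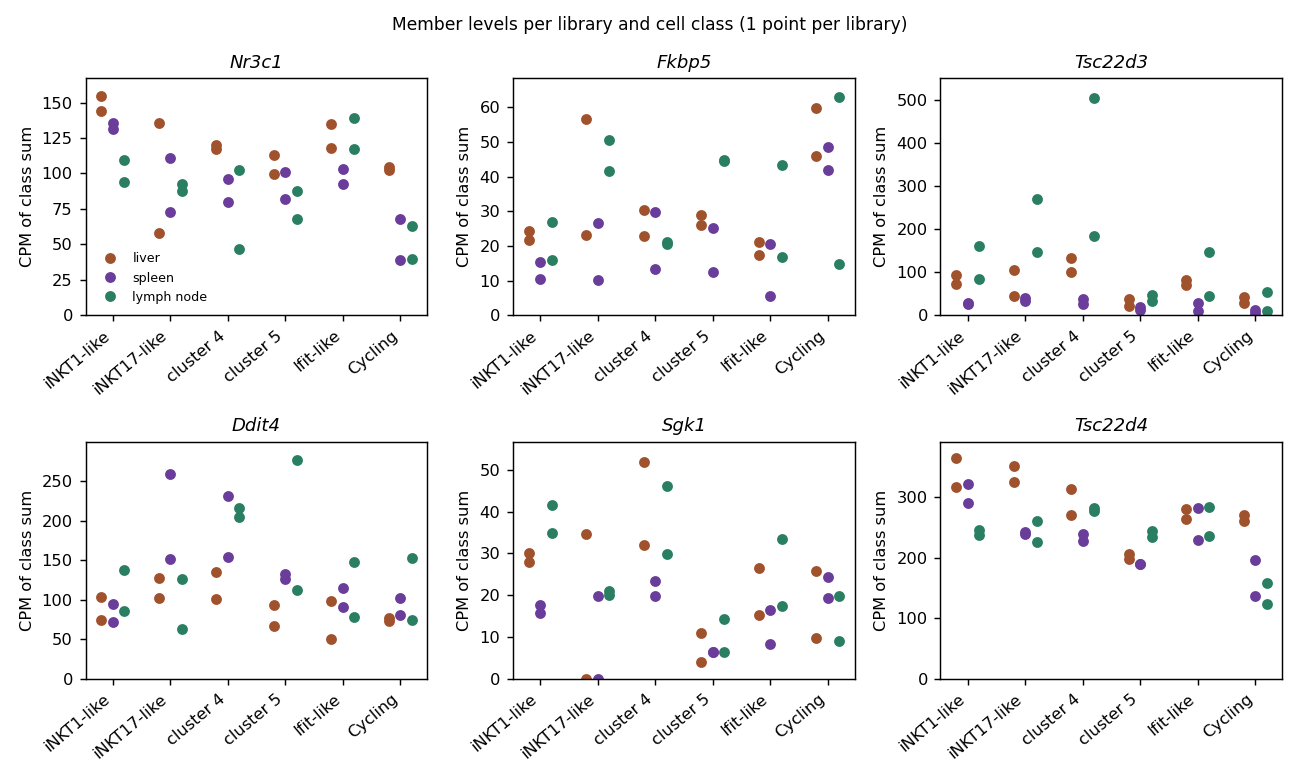
CPM of each gene by cell class, with a point for each library, coloured by organ, for sums of at least 10 cells. Tsc22d3 reaches 503.5 CPM in cluster 4 of 1 lymph node library and is low in Cycling cells and cluster 5.

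Other genes of the pathway were read from lists. In all cells 12.7% higher and 13% lower in liver is the background for liver and spleen, 18% higher and 19.6% lower in liver for liver and lymph node, and 7.98% higher and 10.3% lower in spleen for spleen and lymph node, as shares of all genes tested. Of 20 genes of the receptor complex and its coregulators, 19 were tested in all cells, and between liver and spleen 9 were higher in liver and 2 lower (median log2 difference 0.34, against 0.02 over all genes). The chaperones Hspa8 (0.95, adjusted p = 1.9e-06) and Hsp90ab1 (0.89, adjusted p = 2.01e-06, edgeR), which help the receptor fold, led them. The heat shock genes Hspa1a (34.7 ± 5.24 against 0.409 ± 0.166 normalised CPM, log2 6.30) and Hspa1b (40.4 ± 1.93 against 0.921 ± 1.3, log2 5.35), of the immediate early and dissociation-linked list, were also higher in liver than in spleen, where 2 of the 10 genes of that list were higher and 3 lower, and their part in the chaperone values was not tested. Between liver and lymph node 7 were higher and 3 lower (median 0.23, against 0.01), and between spleen and lymph node 1 was higher in spleen and 3 lower (median -0.03, against 0.00). The co-chaperone gene Dnajb1 had the largest difference of the last comparison (95.1 ± 4.3 in spleen and 235 ± 17.3 normalised CPM in lymph node, SD, n = 2).

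Of 20 other glucocorticoid-induced genes, 19 were tested. Between spleen and lymph node 13 were lower in spleen and 1 higher (median -1.06, against 0.00 over all genes), and between liver and lymph node 10 were lower in liver and 3 higher (median -0.85, against 0.01). Dusp1, a phosphatase of MAP kinases, stood at 61.9 ± 13.5 normalised CPM (SD, n = 2) in liver, against 128 ± 18.9 for spleen and 1071 ± 85 for lymph node. Cdkn1a, an inhibitor of cyclin-dependent kinases, stood at 4.01 ± 0.814, 1.46 ± 1.65, and 54.9 ± 7.3 in the same order. On the immediate early and dissociation-linked list, all 10 genes were lower in spleen than in lymph node and 9 of 10 were lower in liver, and their part in the glucocorticoid-induced list was not tested. In iNKT1-like cells 13 of 17 induced genes tested were lower in spleen than in lymph node and 1 higher (median -1.38).

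Between liver and spleen 5 of the 19 induced genes were higher in liver and 2 lower (median 0.30, against 0.02). Klf9, a transcription factor, was higher by 1.90 (16.4 ± 7.4 against 4.36 ± 1.64 normalised CPM, adjusted p = 0.000294, edgeR), and Txnip, which binds thioredoxin, by 1.71 (250 ± 53 against 76.2 ± 6.83, adjusted p = 2.14e-10). Il7r, the interleukin 7 receptor, had a difference of -1.12.

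Of 15 cytokine and inflammatory genes that glucocorticoids repress, 10 were tested. Between liver and spleen 3 were higher in liver and 1 lower, with Ifng higher by 0.96 and Il2 at -0.66. Between liver and lymph node 3 were higher and 3 lower, and between spleen and lymph node 2 were higher and 4 lower. In iNKT1-like cells, where 9 were tested, the counts differed, with 1 higher and 0 lower, 0 and 4, and 0 and 3 in the 3 comparisons in that order. Of 19 partners and pathway neighbours, 17 were tested, and 4, 5 and 1 were higher and 2, 2 and 2 lower in the 3 comparisons. Sgk3, a paralog of Sgk1, was highest in spleen (39.1 ± 5.4 normalised CPM, against 18.2 ± 2.78 in liver and 16.2 ± 3.86 in lymph node), where Sgk1 was lowest. Tsc22d2, of the family of Tsc22d3, was highest in lymph node (69.1 ± 4.94, against 37.5 ± 8.18 in liver and 41.9 ± 0.475 in spleen).

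The 6 libraries come in pairs from 3 organs and differ in depth. Over them, genes with the most similar pattern were ranked by Pearson's r of log2 normalised CPM, among 5855 genes. Those nearest to Tsc22d3 were Tcea1 (0.998), Peli1 (0.995) and Mafg (0.994), and those nearest to Fkbp5 were P2ry10 (0.989), Rnf125 (0.985) and 2610037D02Rik (0.984). For Ddit4 they were Inpp5k (0.973), 4930481A15Rik (0.971) and Zmym5 (0.965), and for Sgk1 Bmp7 (0.989), Pim1 (0.982) and Dap (0.981). For Nr3c1 they were Otud4 (0.995), Ddx55 (0.993) and Pcnt (0.992), and for Tsc22d4 Dcaf7 (0.993), Nbr1 (0.988) and Pcnt (0.981). The measure ignores the size of a change. Tcea1 ran from 137.3 to 164.0 normalised CPM and Peli1 from 148.3 to 182.7. Over the same libraries Tsc22d3 ran from 26.0 to 194.1 unscaled CPM. P2ry10, with 15.0 to 43.1 normalised CPM, spanned more than Fkbp5. Over the cells of a library, r between any 2 of the 6 genes lay between -0.0522 and 0.0445, which in counts this sparse is no finding.

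**Figure D4:**
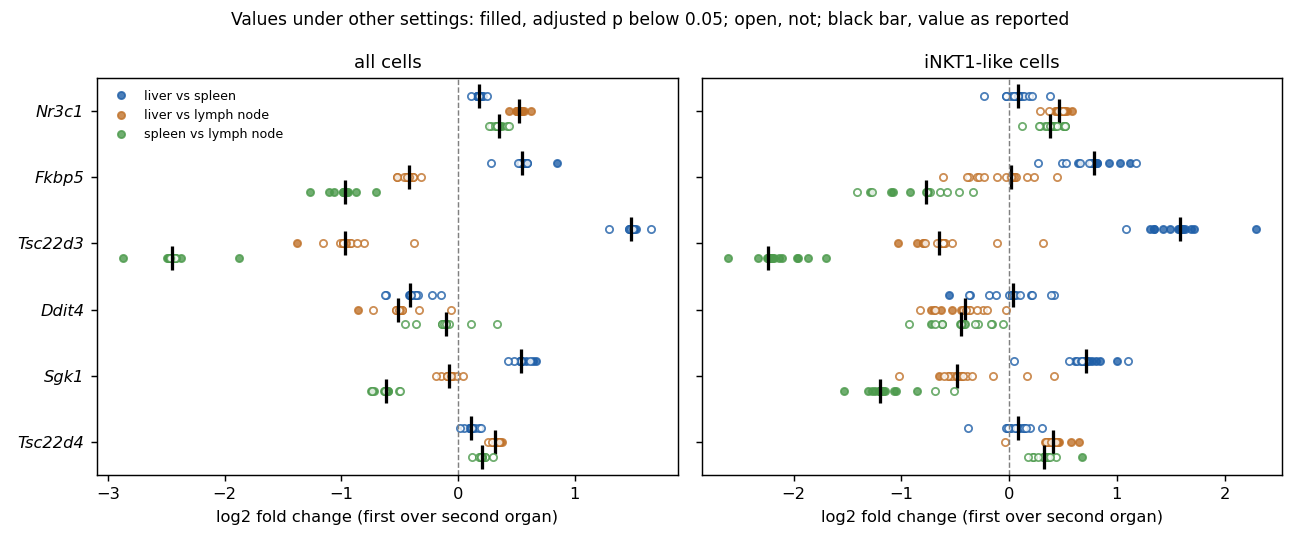
Log2 fold change of each gene as reported (black bar) and under each alternative (points, filled at an adjusted p below 0.05), for all cells and iNKT1-like cells, coloured by comparison. For Tsc22d3 between spleen and lymph node the alternatives run from -2.87 to -1.87 in all cells and from -2.61 to -1.70 in iNKT1-like cells.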

How the data were processed

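iNKT cells of 3 organs, 2 libraries each, were sequenced by 10x Genomics 3' chemistry. Per the labels, the authors used Cell Ranger 3.1.0 and the mm10 build, and the deposited matrices hold UMI counts per gene and cell, not normalised. The labels give the molecule as nuclear RNA although the protocol describes whole cells, and the counts were treated as those of whole cells. The annotation version is not given in the sources used here. Groups follow the labels.

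Cells with 300 to 4000 genes and at most 15% mitochondrial UMIs were kept, with no doublet caller run. Ribosomal protein genes (cytosolic and mitochondrial), rRNA and haemoglobin genes (187 genes, 24.0% to 35.0% of UMIs) were left out, which left 3572393 to 7066773 UMIs per library. UMIs were summed per library and tested with edgeR 4.0.16 in R 4.3.3 (TMM, filterByExpr, robust quasi-likelihood, all 6 libraries in 1 fit, organ as the only term). CPM are unscaled, or TMM-scaled where called normalised. DESeq2 1.42.0, other scalings, filters and cell sets, each library left out and other clusterings were alternatives.

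For classes, 3000 variable genes without the 6 members, centred within each organ, gave 20 components and 20 neighbours for Leiden clustering at resolution 0.5 (scanpy 1.11.5). A class needed a median log2 of at least 1 over its markers and 3 markers at least 2-fold higher. For iNKT1-like cells the markers were set against iNKT17-like cells, with 4 at least 2-fold higher. Several clusterings were examined, and the levels of the members in them seen, before this one. Organ centring, the naming thresholds and the set of ribosomal genes left out were chosen after seeing the data, and the clusterings without centring and with mitochondrial ribosomal protein genes kept are alternatives added after seeing the data, as are those on clusters 0 and 1 and on cells with Cd8b1 RNA. Cluster 4 had markers of recent thymic emigrants but was led by Klra9 and Gzma and was left unnamed.

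The members and lists were chosen with earlier results of these data known. Named genes are the members, at most the 4 called genes of a list with the largest change, of which some are printed, and the 3 genes most like each member. Coordinates are from GENCODE vM21 and promoters from RefSeq, which gave no entry here for Nr3c1 and Tsc22d4.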

Additional observations from a re-analysis of the deposited data

Results flagged for a closer look

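In 7 cases both libraries of one organ placed a class above the iNKT1-like cells of the same library and both libraries of another organ placed it below. Cases were sought for all 6 genes in Cycling, Ifit-like and iNKT17-like cells and in clusters 4 and 5. Signs that fall at random also give such cases. Their expected number was not worked out, so 7 is not read as an excess. The values are mean log2 differences of CPM with a pseudocount of 5 CPM, and the difference between organs was not tested. Ddit4 in iNKT17-like cells was at 0.36 in liver and 1.22 in spleen against -0.27 in lymph node. Ddit4 in cluster 5 was at 0.62 in spleen and 0.68 in lymph node against -0.14 in liver. Ddit4 in Ifit-like cells was at 0.30 in spleen against -0.30 in liver. Sgk1 in Cycling cells was at 0.30 in spleen against -0.68 in liver and -1.21 in lymph node, from 5 and 6, 5 and 14, and 4 and 2 UMIs, too few to order the organs. Nr3c1 in Ifit-like cells was at 0.32 in lymph node against -0.24 in liver and -0.43 in spleen. Fkbp5 in Ifit-like cells was at 0.32 in lymph node against -0.21 in liver, from 3 and 5 and 8 and 8 UMIs. Tsc22d4 in cluster 4 was at 0.21 in lymph node against -0.22 in liver and -0.38 in spleen. UMIs per library over the 6 libraries were 9 to 151 for Ddit4 in iNKT17-like cells, 20 to 130 in cluster 5 and 14 to 37 in Ifit-like cells, 16 to 54 for Nr3c1 and 55 to 206 for Tsc22d4.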

How the results depend on the processing

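In all cells, the 8 calls kept their sign under all 15 alternatives, and 2 of them, Nr3c1 between liver and lymph node and Fkbp5 between spleen and lymph node, were called under each. In iNKT1-like cells, 6 of 8 calls kept their sign under all 18, and 1, Tsc22d3 between spleen and lymph node, was called under each. Counts of members called in all cells between liver and spleen, liver and lymph node, and spleen and lymph node were 2, 2 and 4, and with DESeq2 they were 1, 1 and 2. With libraries thinned to the smallest total the first was 0 by edgeR (3 at an unadjusted p under 0.05, and 1 by DESeq2 unthinned) and the second 1. With 1 library left out they ranged from 0 to 3, from 1 to 3 and from 1 to 3, the 0 arising without liver replicate 1 or liver replicate 2 (2 each at an unadjusted p under 0.05, edgeR). In iNKT1-like cells the counts were 3, 3 and 2, and DESeq2 gave 1, 1 and 2. Clusters made without centring gave 0 (3 at an unadjusted p under 0.05, edgeR), 0 (0 unadjusted) and 5, but there the class held 39 and 124 liver cells, so that the first 2 counts do not test the same liver cells. Cluster 0 alone gave 1 between liver and lymph node, and cluster 1 alone gave 1 between spleen and lymph node. With 1 library left out the counts ranged from 2 to 3, from 1 to 4 and from 2 to 4. Without centring, Tsc22d4 between liver and lymph node turned to -0.0356, and in cluster 1 alone Tsc22d3 turned to 0.32. The causes were not tested. The shares of all genes called, given above, belong to the reported edgeR fits, so counts under the alternatives cannot be read against them. Deviations of libraries with the same number correlated by at most 0.0849, so the numbers were not taken to pair libraries. With the replicate number as a block, 4 members were called between spleen and lymph node in iNKT1-like cells, Fkbp5 between liver and lymph node in all cells was called (0.049), and Tsc22d3 between spleen and lymph node in all cells was at -2.42 (adjusted p = 0.117, edgeR). Depth limits Sgk1 and Fkbp5 most, with as few as 54 UMIs in a library in all cells and 22 in iNKT1-like cells.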
